A study of Anolis chlorocyanus and Anolis cybotes and Anolis osa with 24 samples.

Results

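A set of 84 genes, of 25920 identifiers counted, stood slightly lower in leg muscle than in jaw muscle in all 12 numbered pairs of libraries from 4 Anolis species. They were chosen from the counts themselves. For each of the 12 numbers in the library titles, the difference D was the leg value minus the jaw value of log2(CPM + 1), where CPM is counts scaled to 1e6 per library. Members had D under 0 in 12 of 12 numbers and a mean D above -1 and at most -0.5. Turned back from the log2 scale, mean D among the genes found gave ratios of leg to jaw from about 0.502 to 0.699. Ratios of mean CPM can differ from these. Since D chose them, leg and jaw values below describe the members and carry no test, except where genes were read in a species that had not chosen them.

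The libraries came from whole muscle of males, and the study asked how expression differs between leg and jaw muscle beside contractile physiology. Leg and jaw groups of 3 libraries each were made for Anolis chlorocyanus (title numbers 04, 06 and 08), Anolis cybotes (01, 03 and 08), Anolis osa (04, 05 and 07) and Anolis sagrei (15, 16 and 17), 24 libraries in all. No treatment or age is given in the labels, and they do not say which leg or jaw muscle was taken, whether animals were pooled, or in words that a title number is 1 animal. Whole muscle holds fibres together with vessels, nerve and connective tissue, so fewer cells of a type and less RNA per cell cannot be told apart.

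Jaw muscles of lizards close and open the mouth for biting, feeding and display, and leg muscles move the body in running, jumping and perching. Vertebrate jaw and limb muscles arise from different embryonic mesoderm, and jaw muscles of several vertebrates hold myosin forms that limb muscles lack. The deposited table gives identifiers without gene symbols, so the function of the members, and marker genes of muscle or other cell types, were not analysed here. Beyond 3 identifiers, members are given by their rank in abundance.

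Totals per library ran from 1315319 to 1962685 counts, and 3 counts, the limit that a count of 0 allows, correspond to 1.53 to 2.28 CPM. Of the 84 members, 81 passed the low-count filter over the 8 groups that kept 9123 genes, and 82 entered the species test. Libraries were also compared by TMM factors, a scaling that sets most genes equal between libraries. The chlorocyanus 08 libraries stood apart, at 1.32 in leg and 1.30 in jaw, where the other 22 libraries had factors of 0.806 to 1.21.

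Members were mostly well-expressed genes. Their mean over the 24 libraries had a median of 104 CPM, with quartiles of 47.3 and 302 CPM, against a median of 19.0 CPM over the 9123 genes. In all, 4 members exceeded 1000 CPM, 38 lay from 100 to 1000, 35 from 10 to 100 and 7 under 10 CPM. Genes of at least 100 CPM were thus 42 of 84 members, while 12.6% of the 9123 genes lay between 100 and 1000 CPM and 0.943% above. Counting error in D is larger for genes with few counts, so abundance is not independent of a rule that asks for 12 equal signs. Among genes with 12 equal signs, the 105 mildly higher in leg had a median of 26.8 CPM. The 73 at least 2-fold lower in leg had 57.0 CPM. Why these sets differ from the members was not tested. Together the members took 1.73% ± 0.140 of all counts in leg and 2.79% ± 0.221 in jaw (SD, n = 12 libraries per muscle). Leg shares ran from 1.49% to 1.96% and jaw shares from 2.50% to 3.28%. The 2 most abundant members made up 22.0% of the members' counts in leg and 22.6% in jaw.

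**Figure D1:**
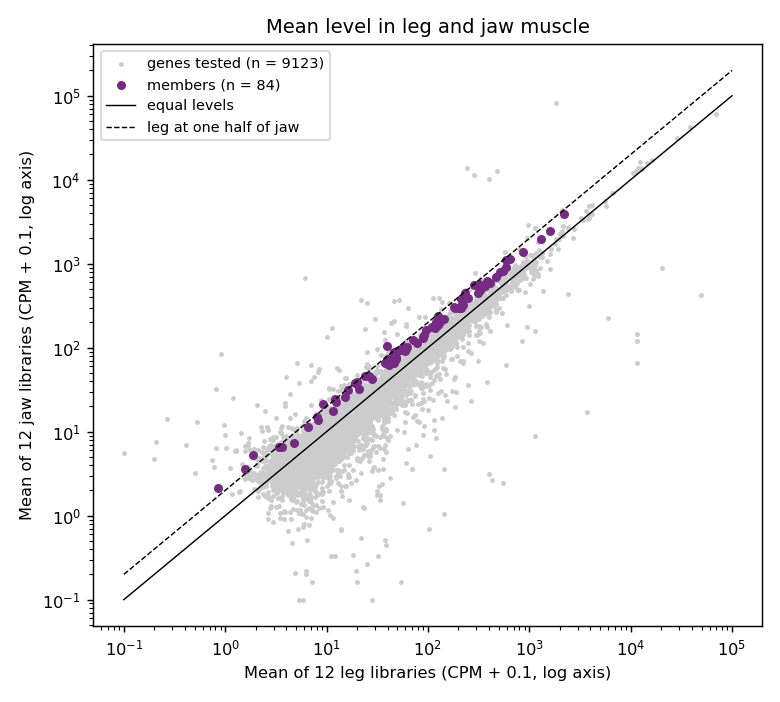
Mean level of each gene over 12 leg libraries (horizontal) and 12 jaw libraries (vertical), both as CPM + 0.1 on log axes; grey points are the 9123 genes tested and purple points the 84 members. All 84 members lie above the line of equal levels. In mean CPM, unlike in mean D, 7 lie beyond the dashed line that marks leg 2-fold under jaw. All 7 are under 100 CPM.

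ENSACAG00000000350 was the most abundant member and rank 38 among all identifiers. Its lowest, median and highest values were 1278, 2211 and 3499 CPM in the 12 leg libraries, against 1952, 3638 and 6256 CPM in the 12 jaw libraries. The groups overlapped, although each leg library lay under the jaw library of its own number. The means were 2195 ± 565 CPM in leg and 3927 ± 1459.8 CPM in jaw (SD, n = 12), with a mean D of -0.79. The difference was uneven among species, with a mean D of -1.17 in osa, -0.84 in cybotes, -0.82 in chlorocyanus and -0.31 in sagrei. The sagrei jaw libraries, at 2478, 1952 and 3089 CPM, lay below every osa jaw library.

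ENSACAG00000008253, second in abundance, had lowest, median and highest values of 627, 1659 and 2317 CPM in leg and of 1561, 2574 and 3474 CPM in jaw. It averaged 1607 ± 463 CPM in leg and 2444 ± 624 CPM in jaw (SD, n = 12), with a mean D of -0.63. Again leg and jaw ranges overlapped. The difference was deepest in the cybotes 08 pair, at -1.35, and nearest to 0 in the sagrei 15 pair, at -0.13. The members at ranks 3 and 4 of abundance averaged 1301 ± 243 and 858 ± 154 CPM in leg, with mean D values of -0.59 and -0.66.

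**Figure D2:**
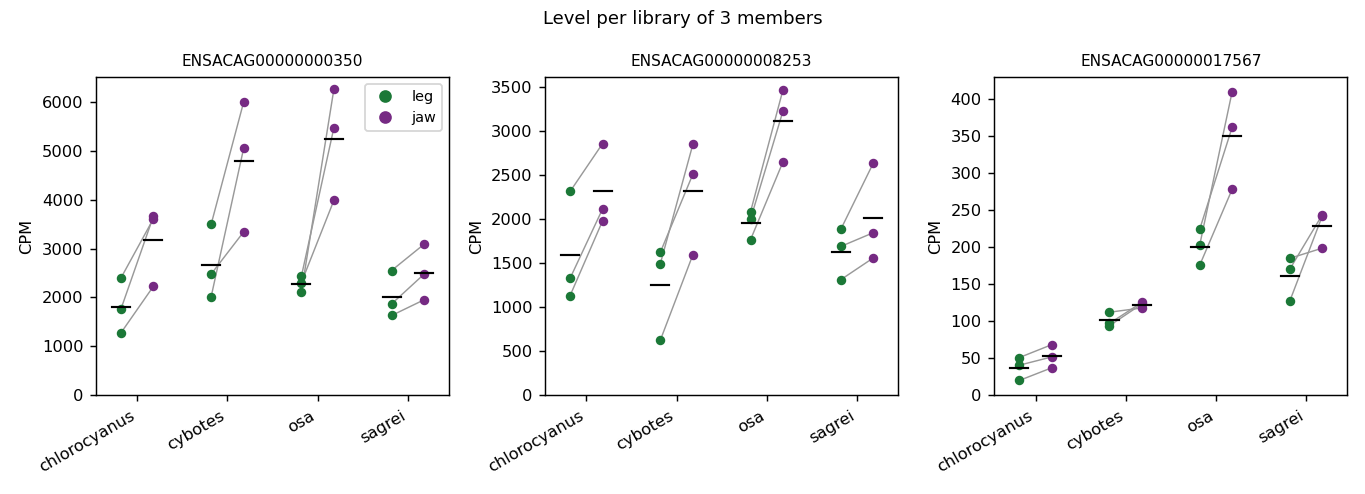
CPM per library (vertical axis, from 0) of the 3 members given by identifier, by species; green points are leg, purple points jaw, grey lines join libraries of the same title number and black bars are means of 3. Each line climbs from leg to jaw, and the species differ most for ENSACAG00000017567.

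Among the members themselves, mean D had a median of -0.70, from -0.99 to -0.52. As a ratio of leg to jaw, turned back from mean D, the median was 0.617. Over all 9123 genes the median of mean D was not 0 but 0.13, so the members sat further from the typical gene than from equality. With TMM scaling that median was 0.01 and the members' median -0.82. At that scale 83 of 84 members had D under 0 in 12 of 12 numbers and all 84 had a mean D of at most -0.5. Since the members were chosen on this sign, and TMM moved the median further from 0, nothing is read from those counts. With TMM scaling 160 genes met the rule, 69 of them members. Of the 15 members lost, 14 had passed to a mean D of -1 or lower.

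The bounds fell within a continuum. The members just inside -0.5 and -1 had mean D values of -0.52 and -0.99, and the genes just outside, with 12 equal signs, had -0.49 and -1.01. In all, 179 genes had D under 0 in 12 of 12 numbers, of which 22 had a mean above -0.5 and 73 a mean of -1 or lower. A further 82 genes lay in the range of mean D but missed the sign in 1 number. The mirror rule, D over 0 in 12 of 12 and a mean of at least 0.5 and under 1, gave 105 genes.

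The size of the difference was moderately uneven across numbers. Per number, the members' median D ran from -0.79 in chlorocyanus 04 to -0.40 in cybotes 03, where the median over the 9123 genes was also the highest, 0.40. In chlorocyanus 04 the median over those genes was the lowest, -0.05. Measured from the median of all genes in the same number, the members lay deeper in cybotes 03 than in chlorocyanus 04. Cybotes 03 gave the value nearest to 0 for 22 of 84 members. By species, the median of the members' mean D was deepest in chlorocyanus and sagrei, -0.71 in each, followed by osa with -0.67 and cybotes with -0.58. The median over the genes tested also differed, at 0.25 in cybotes, 0.16 in sagrei, 0.08 in osa and 0.03 in chlorocyanus. Measured from the median of the genes tested in the same species, the members lay deeper in cybotes than in chlorocyanus. The count by number above, the order of species and the counts by species that follow are on the scale of totals. They take no account of these offsets. Cybotes had the shallowest mean D for 33 members, osa for 22, sagrei for 15 and chlorocyanus for 14. A 2-fold or deeper mean D within a species was seen for 20 members in chlorocyanus, 12 in cybotes, 10 in sagrei and 7 in osa.

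**Figure D3:**
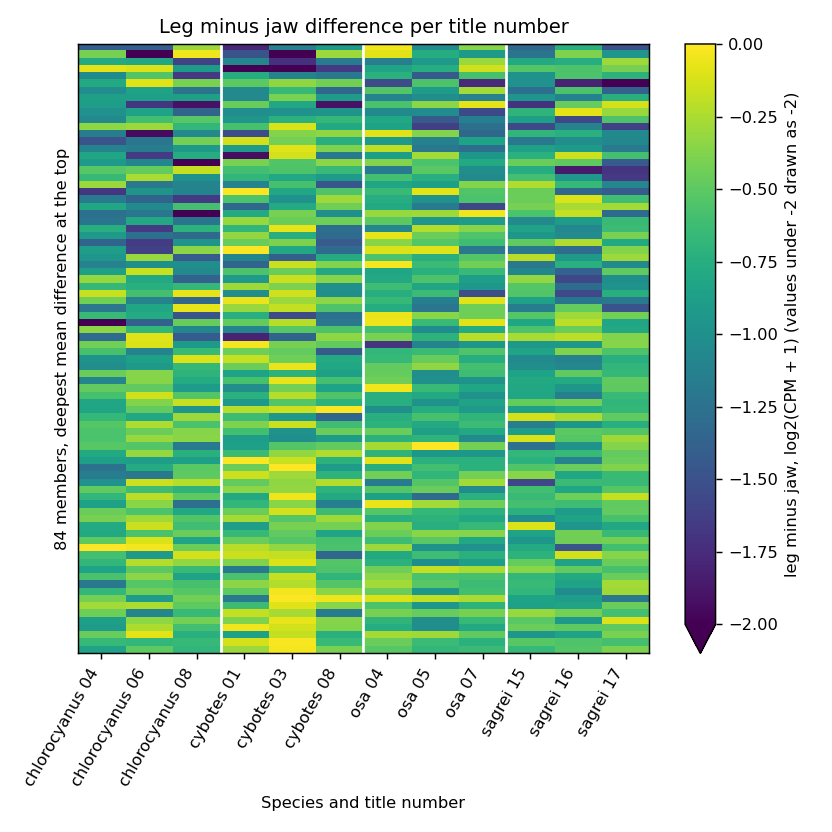
Leg minus jaw difference on the log2(CPM + 1) scale for the 84 members (one line each, ordered by mean) in the 12 title numbers (columns, in species order); colour runs from yellow at 0 to dark at -2 and below. The cybotes 03 column is the lightest, with a median of -0.40, and single dark cells mark deep differences in 1 number. Colours are on the scale of totals and take no account of the median over all genes, which was highest in cybotes 03.

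Over the libraries of all 4 species, leg and jaw values overlapped for every member, but within a species many members did not overlap. No member had all 12 leg libraries under all 12 jaw libraries, which 0.186% of the 9123 genes had. With so small a share over all genes, its absence among 84 members says nothing particular to them. Within a species, the 3 leg libraries lay under the 3 jaw libraries for 59 of 84 members in osa, 52 in sagrei, 46 in chlorocyanus and 42 in cybotes. Over the 9123 genes the shares were 6.89% in osa, 4.83% in sagrei, 5.4% in chlorocyanus and 4.01% in cybotes. Since the rule used these differences, nothing is read from the contrast with those shares. A total of 13 members were separated in all 4 species, 27 in 3 species, 24 in 2 species, 18 in 1 species and 2 in none.

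The spread of D between numbers is given as a description, since a rule of 12 equal signs limits it. The SD of D over the 12 numbers had a median of 0.35, while counting alone would give 0.18. Among the 42 members over 100 CPM the medians were 0.30 observed and 0.10 from counting. Among the 7 members under 10 CPM they were 0.56 observed and 0.67 from counting. Of those 7, 4 had 0 counts in at least 1 library. The steadiest member ranked 44 in abundance, with an SD of D of 0.18, where counting alone would give 0.19. Another, rank 51, had a mean D of -0.95 that was deepest in cybotes. Its cybotes jaw libraries held 215, 460 and 103 CPM, against 37.6, 62.1 and 31.9 CPM in the cybotes leg libraries of the same numbers. In the other 9 pairs its jaw values ran from 39.6 to 67.0 CPM. Both were singled out after their values were seen.

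Whether the steady direction extends to a species with no part in the choice was examined by leaving out each species in turn. The rule was applied to the 9 numbers of the other 3 species, and the genes it chose were read in the species left out. In chlorocyanus, 79 of 93 genes so chosen had D under 0 in 3 of 3 numbers, where 19.9% of 7310 genes tested had. In cybotes these were 85 of 155 genes, against 11.4% of 6814. In osa they were 72 of 99, against 21% of 7245, and in sagrei 82 of 106, against 13.2% of 7117. These counts include chosen genes that the low-count filter kept out of the genes tested. Among chosen genes that were tested, the counts were 74 of 83 in chlorocyanus and 80 of 135 in cybotes. They were 69 of 92 in osa and 72 of 91 in sagrei. Chosen genes were more abundant than those tested, so genes over 100 CPM were also read alone. There D was under 0 in 3 of 3 numbers for 38 of 40 chosen genes in chlorocyanus, where 24.1% of all tested genes of that abundance had it. The counts were 44 of 67 in cybotes (20.3% of all), 35 of 39 in osa (31.3%) and 40 of 47 in sagrei (19.6%).

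The depth of the difference carried over less evenly. In the species that chose the genes, the rule itself held mean D to at most -0.5. A median nearer to 0 in the species left out can follow from that choice alone. The chosen genes' median of mean D was -0.62 in chlorocyanus, against -0.67 in the 3 species that chose them. It was -0.58 in osa, against -0.71, and -0.63 in sagrei, against -0.68. In cybotes it was -0.37, against -0.71, in a species whose tested genes had a median of 0.20. The order of the species depended on the scaling. With TMM scaling of both the choice and the reading, the median was nearest to 0 in chlorocyanus, at -0.47, against -0.69 in the species that chose the genes. It was -0.58 in cybotes, against -0.70, then -0.55 in osa, against -0.71, and -0.67 in sagrei, against -0.69. On the scale of totals the cybotes 03 pair again lay nearest to 0, with D under 0 for 104 of 155 genes.

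Few of the chosen genes passed a test within 1 species of 3 libraries a side unless the pairing was used. By edgeR's quasi-likelihood test, fitted to each species alone and adjusted by Benjamini-Hochberg, 6 of 135 chosen genes tested in cybotes were called lower in leg, where 0.998% of all genes tested were. In osa 15 of 92 were called, against 1.21%, and in sagrei 3 of 91, against 0.66%. In chlorocyanus 0 of 83 were called, against 0.137%, with 3 called by DESeq2, against 0.739%. At an unadjusted p under 0.05, 18 of the 83 were lower in leg in chlorocyanus (2.95% of all genes tested), 53 of 135 in cybotes (4.87%), 48 of 92 in osa (6.02%) and 56 of 91 in sagrei (4.75%). None was called higher in leg in these 4 fits. The title numbers pair leg and jaw libraries, and with the number as a block edgeR called 32 of 83 lower in chlorocyanus (3.47% of all genes tested), 35 of 135 for cybotes (3.14%), 55 of 92 for osa (8.93%) and 52 of 91 for sagrei (3.63%). With the block 1 chosen gene was called higher in leg, in osa. Without the block, leaving out any 1 number left 0 to 2 genes in cybotes, and 0 to 1 in osa and in sagrei.

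**Figure D4:**
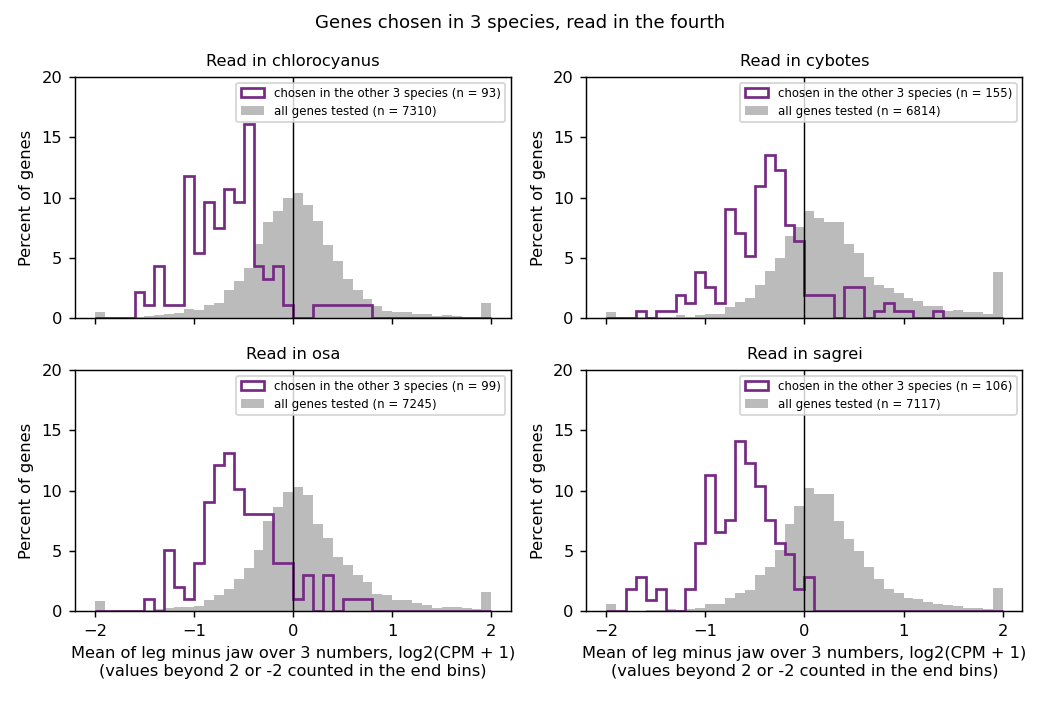
Mean D over the 3 numbers of a species (horizontal, log2 scale) for genes chosen in the other 3 species (purple outline) and for all genes tested in that species (grey), as percent of genes in bins of 0.1. The purple outlines lie mostly left of 0 in all 4 panels, with medians from -0.63 in sagrei to -0.37 in cybotes.

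The rule did not use species levels directly, but D under 0 needs a jaw count in each number. Genes silent in the jaw of any species could thus be among the genes tested but not among the members. Comparisons of members with all genes, in share called and in size, carry this limit. Leg and jaw counts of each number were summed, giving 3 sums per species, and tested over 4 species by edgeR's quasi-likelihood test. Of the 82 members tested, 33 (40.2%) differed between species at an adjusted p under 0.05, where 43.8% of 9908 genes did. By abundance, 12 of 42 members over 100 CPM were called, against 33.3% of genes in that class. From 10 to 100 CPM 18 of 35 were called, against 46.5%, and under 10 CPM 3 of 5, against 43.7%. In this fit the members' share was close to the background. Blocking on the title number in limma voom gave 48 of 81 (59.3%), where 48.9% of all genes were called. The 73 genes at least 2-fold lower in leg and the 105 mildly higher in leg had 38% and 39.2% called.

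The size of the species differences varied widely. Among the 33 called members, the highest and lowest species mean differed by a median of 1.60 on the log2 scale, from 0.83 to 3.40. Over the 4344 genes called in all, the median was 1.70. The difference was at least 2-fold for 30 of the 33 members, against 94.2% of the 4344 genes, and at least 4-fold for 7 members, against 34% of those genes. Among the 49 members not called the median was 0.69. Neither of the most abundant members passed, with species means here on the TMM scale. ENSACAG00000000350 had species means of 3860.0 ± 635 CPM (cybotes), 3487 ± 508 CPM (osa), 2377 ± 319 CPM (chlorocyanus) and 2292 ± 392 CPM (sagrei; SD, n = 3; edgeR adjusted p = 0.0511, and 0.00382 to 0.32 over the alternatives). ENSACAG00000008253 stood between 1849 ± 319 CPM in sagrei and 2366 ± 244 in osa (edgeR adjusted p = 0.595).

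ENSACAG00000017567, rank 35 among the members, had the smallest adjusted p of the 82. On the TMM scale, its level over both muscles was 33.6, 46.5 and 47.1 CPM in chlorocyanus and 128, 108 and 120.01 CPM in cybotes. It was 271, 289 and 211 CPM in osa and 232, 187 and 177 CPM in sagrei. No library sum of chlorocyanus reached one of cybotes, and none of cybotes reached one of osa or sagrei. The edgeR adjusted p was 6.66e-05. On the log2 scale the difference of chlorocyanus minus cybotes was -1.48 (SE 0.24, edgeR adjusted p = 0.00134), and that of cybotes minus sagrei -0.74 (SE 0.24, edgeR adjusted p = 0.0462). Osa and sagrei, neighbours at the top, did not differ past the threshold (0.37, SE 0.23, edgeR adjusted p = 0.316). Its mean D was -0.53, with leg below jaw in chlorocyanus and osa alike while their levels differed by -2.59 (SE 0.25).

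**Figure D5:**
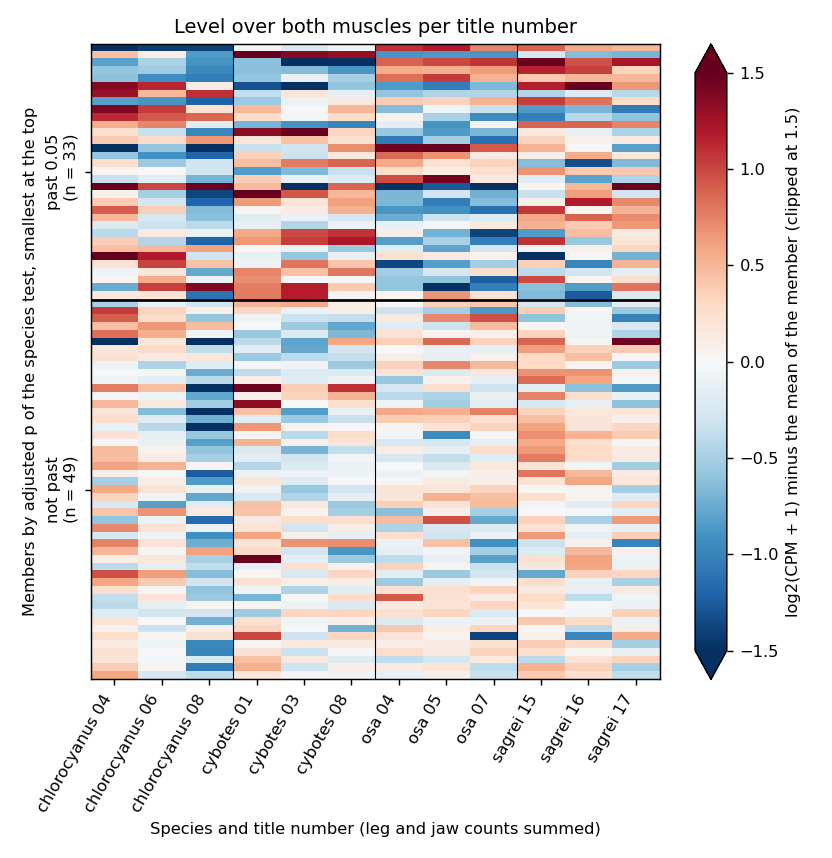
Level over both muscles in the 12 title numbers (columns) as log2(CPM + 1) minus the member's mean, for 82 members ordered by the adjusted p of the species test; red is above and blue below the mean, clipped at 1.5. Levels are on the TMM scale. The 33 members above the black line passed 0.05, with each of the 4 species highest for some of them, and the chlorocyanus 08 column is bluer than its neighbours.

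Each species was the highest for some members. Among the 33 called members the highest mean was in sagrei for 11, where 20.8% of the 4344 called genes had it, and in cybotes for 9, against 23.3%. It was in chlorocyanus for 8, against 30.5%, and in osa for 5, against 25.5%. The lowest mean was in osa for 15, where 25.9% of the called genes had it. It was in sagrei for 7, against 21.2%, in chlorocyanus for 6, against 27.1%, and in cybotes for 5, against 25.9%. On the scale of totals, the share of all counts held by the 84 members over both muscles was highest in osa, 2.42%. That share was 2.27% in sagrei, 2.13% in cybotes and 2.10% in chlorocyanus (means, n = 3). With TMM scaling osa led in neither muscle. The jaw share was then 3.16% in cybotes and 3.01% in osa, and the leg share 1.74% in sagrei and 1.66% in osa. In jaw, the 2 most abundant members made up 27.0% of the members' counts in osa, 26.5% in cybotes, 20.9% in chlorocyanus and 16.1% in sagrei. Osa and sagrei, anoles of the Norops clade, both lay above the other species for 8 of the 33 and both below for 7. Over the 4344 called genes these orders made up 17.8% and 19.5%. Between single pairs of species, adjusted within each pair, chlorocyanus was higher than osa for 12 of 82 members (12.7% of all genes tested) and lower for 9 (11.9%). Cybotes was higher than osa for 11 (9.48%) and lower for 5 (9.89%), and higher than sagrei for 6 (7.55%) and lower for 12 (8.07%). The last balance turned to 7 higher and 6 lower with upper-quartile scaling, 7 and 5 with no filter on low counts, and 10 and 9 in jaw libraries alone. Osa was higher than sagrei for 2 (7.15%) and lower for 8 (6.49%). Chlorocyanus was higher than cybotes for 5 (11.6%) and lower for 7 (10.3%), and higher than sagrei for 4 (9.91%) and lower for 8 (9.41%). With all 24 libraries and the title number as a block in limma voom, these last counts were 9 and 17 for cybotes and 5 and 16 for sagrei. The balance of chlorocyanus and cybotes turned to 8 higher and 6 lower with no filter and to 5 and 3 in leg libraries alone, with 2 and 11 in jaw libraries alone. That of chlorocyanus and osa turned to 12 higher and 13 lower with the block.

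These pair counts depended on single numbers. With 1 of the 12 numbers left out, the balance of higher and lower turned in 5 cases for chlorocyanus and cybotes. It turned in 2 for chlorocyanus and osa and 2 for cybotes and sagrei. Equal splits were not counted as turned. Cybotes and osa came to 5 and 5 without cybotes 08, osa 05 or osa 07. Chlorocyanus and sagrei came to 7 and 7 without chlorocyanus 08. Splits were also equal for chlorocyanus and cybotes without cybotes 03 or 08 or osa 05 or 07. The same held for chlorocyanus and osa without chlorocyanus 06 or osa 05. Leaving out 1 number gave 9 to 20 members for cybotes and osa together, with 9 or 10 without cybotes 03 or 08 or any osa number. It gave 8 to 23 for cybotes and sagrei, with 8 to 11 without chlorocyanus 06, cybotes 01, 03 or 08, osa 04 or any sagrei number. For osa and sagrei it gave 3 to 12, with 3 to 6 without osa 04, 05 or 07 or sagrei 16.

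Within a species and muscle, the members were steady on the scale of library totals. The SD among 3 numbers, pooled over the 8 groups, had a median of 0.37 on the log2(CPM + 1) scale for members and 0.56 over the 9123 genes. Over 100 CPM the medians were 0.28 for 42 members and 0.40 for 1233 genes, and from 10 to 100 CPM 0.41 and 0.52. The rule itself keeps out genes with erratic differences, and the SD shares that noise. In median shares of a member's variance over 24 libraries, species took 36.1%, title number within species 17.7%, species by muscle 3.16% and the remainder 3.79%. Over the 9123 genes these were 42.2%, 29.7%, 4.47% and 8.14%. The muscle took 30.5% among members and 2.72% over all genes, which the rule fixed. Shares of a gene add up to its whole variance, so a larger muscle share lowers the other shares. Nothing is therefore read from the contrast of those shares with all genes.

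The steadiness depended on the scaling, most of all in chlorocyanus. With TMM scaling the members' median SD was 0.51 in chlorocyanus leg and 0.45 in chlorocyanus jaw, against 0.48 and 0.45 over all genes. In osa it was 0.19 in leg and 0.28 in jaw, against 0.38 and 0.40. For sagrei jaw it was 0.37, against 0.42 over all genes, where the scale of totals gave 0.31, against 0.44. The members' mean level over both muscles lay 0.39 below its species mean in chlorocyanus 08 on the TMM scale and 0.09 below on the scale of totals. The other 11 numbers deviated by -0.11 to 0.25 on the TMM scale. The TMM factors of the chlorocyanus 08 libraries move with this difference, and their part in it was not tested. Without chlorocyanus 08 the species test called 40 of 83 members (48.2%), where 43.2% of all genes tested were called.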

How the data were processed

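RNA was measured in 24 libraries of whole leg and jaw muscle, extracted with Trizol per the labels' protocols, with libraries by BGI. STAR, a spliced aligner, is the tool named in the submitters' processing notes, with no version. For genome build, annotation, counting program and strand, nothing is given in the sources used here. The authors deposited raw counts per gene identifier, whole numbers with no normalization, and all 24 columns were matched to samples by title. Of 25920 identifiers, 8688 had 0 counts throughout. Groups are the species and muscle of each title.

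Members and gene lists were chosen with earlier results of these data known. Lists that needed symbols were not analysed. CPM and D used column totals and a pseudocount of 1. Tests used edgeR 4.0.16 in R 4.3.3 with filterByExpr, TMM factors and the quasi-likelihood F-test, adjusted by Benjamini-Hochberg over all genes tested, with a threshold of 0.05. Species levels in CPM come from the TMM-scaled sums. Standard errors were obtained from fold change and F statistic. The functions were tested on simulated data. Identifiers were printed for the 2 most abundant members and the one with the smallest adjusted p between species.

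Jaw and leg libraries of 1 number deviated from their group means together, with correlations of 0.296 to 0.740 (median 0.445), and each of the 24 was closest to its own number, so the numbers were taken to pair them. The labels do not say how replicates were taken, so p-values reflect only the spread among these libraries, which may be technical. Intervals of counting error take reads as independent molecules. Alternatives were other scalings, pseudocounts and filters, DESeq2 1.42.0, limma voom 3.58.1, each muscle alone, and leaving out each number. A sequence difference between species that alters mapping cannot be told apart from a difference in expression.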

Additional observations from a re-analysis of the deposited data

How the results depend on the processing

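The count of members depends most on scaling: 160 genes met the rule with TMM scaling (69 of them members), 150 with median-ratio scaling (70 members) and 183 with upper-quartile scaling (65 members). It was 77 to 103 with other pseudocounts, a minimum of 10 CPM or totals without the 20 most abundant genes, and 81 to 111 leaving out 1 number. For species differences, 23 to 48 members were called over the other settings. The lowest was 23 of 79 (29.1%) in leg libraries alone, where 33.5% of all genes were called. The highest was 48 of 81 (59.3%) with the title number as a block in limma voom, where 48.9% of all genes were called. Leaving out 1 number gave 24 to 40 members (28.9% to 48.2%), where 35.1% to 45.9% of all genes were called. Pair counts were 26 (block) and 21 (DESeq2) for chlorocyanus and cybotes, 21 (block) for chlorocyanus and sagrei, and 8 and 4 in leg libraries alone for cybotes and sagrei and for osa and sagrei. Leaving out 1 number gave 8 to 14 for chlorocyanus and cybotes, 14 to 25 for chlorocyanus and osa, 9 to 14 for chlorocyanus and sagrei, 9 to 20 for cybotes and osa, 8 to 23 for cybotes and sagrei and 3 to 12 for osa and sagrei.

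For genes chosen in 3 species and called lower in leg in the species left out, the counts in chlorocyanus, cybotes, osa and sagrei were 32, 35, 55 and 52 with the block and 3, 16, 24 and 9 by DESeq2. Over all genes tested, the shares called lower were 3.47%, 3.14%, 8.93% and 3.63% with the block. By DESeq2 they were 0.739%, 1.67%, 2.03% and 1.21%. Without a low-count filter, cybotes had 20 (1.2% of all genes tested) and sagrei 6 (0.715%). Leaving out 1 number gave 0 in chlorocyanus, 0 to 2 in cybotes, 0 to 1 in osa and 0 to 1 in sagrei. With TMM scaling of the choice, 161 of 239, 152 of 207, 144 of 199 and 154 of 187 chosen genes had D under 0 in 3 of 3 numbers. At that scale 21.2%, 25.9%, 28% and 21.9% of all genes tested had it. On the scale of totals, leaving out 1 number, 80 to 82, 91 to 112, 74 to 81 and 86 to 91 chosen genes had D under 0 in both numbers left. The cause of these changes was not tested, and fits with a number left out also had fewer libraries. The balance of members higher and lower turned for 3 of the 6 pairs of species (chlorocyanus with cybotes or osa, and cybotes with sagrei), in 2, 1 and 3 of 7 settings. An equal split, as 9 and 9 for chlorocyanus and osa in leg libraries alone, was not counted as turned. Counts were fewest for the 7 members under 10 CPM, of which 4 had 0 counts in at least 1 library.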
